A study of Mus musculus with 20 samples.

Results

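The genes described here encode EHD proteins, Rab11 effectors, Arf6 and proteins that work with them in endocytic recycling, the return of internalised membrane and receptors to the cell surface. There are 9 of them, chosen by name with earlier results of these data known, out of 42890 genes with an annotated transcript. They are Ehd1, Ehd3, Ehd4, Micall1, Rab11fip1, Rab11fip2, Rab11fip5, Arf6 and Snx27. All 9 were among the 15010 genes tested. RNA was sequenced from the abdominal aortas of C57BL/6 mice, 5 in each of 4 groups, to find genes that differ with Rab22a genotype and with angiotensin II. Rab22a knockout mice received angiotensin II (AngII) at 500 ng/kg/min for 14 days (KO+AngII) or saline for the same time (KO+NS). Mice with intact Rab22a received the same 2 treatments (WT+AngII and WT+NS). Age, sex, how the knockout was made and which cells carry it were not given in the sources used here. Each library is labelled as a separate sample, and p-values weigh group differences against the spread between these samples.

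As background, Rab22a is a small GTPase of early endosomes that takes part in the recycling of cargo taken up without clathrin, and AngII is a hormone that acts on smooth muscle of the artery wall through its AT1 receptor. EHD proteins are ATPases that bend and cut recycling membranes, and MICAL-like 1 (Micall1) is a scaffold that brings EHD1 to recycling tubules. Rab11 effectors of the FIP family tie Rab11 vesicles to motors, Arf6 controls membrane traffic and actin at the cell surface, and sorting nexin 27 (Snx27) returns cargo from endosomes to the surface with the retromer complex.

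Values are FPKM, reads scaled by transcript length and by library total, summed over the annotated transcripts of a gene, so levels of different genes are compared per length. Library totals recovered from the values ran from about 68700000 to 77400000 reads. The knockout was checked on the transcripts of Rab22a itself. The full-length coding transcript Rab22a-201 ran from 0.00186 to 0.00563 FPKM in KO+AngII and from 1.87 to 8.62 FPKM in WT+AngII. It ran from 0 to 0.00363 FPKM in KO+NS and from 2.34 to 8.42 FPKM in WT+NS (exact two-sided permutation test p = 0.00794 for each pair, the smallest that 252 arrangements allow). A second transcript of the locus, Rab22a-203, which is annotated as subject to nonsense-mediated decay, was higher in the knockouts, at 7.43 to 11.1 FPKM against 0.162 to 3.61 FPKM in wild type. The summed Rab22a level was thus not lower in knockouts. Its mean was 9.24 FPKM in KO+AngII and 9.41 FPKM in KO+NS, against 7.85 FPKM in WT+AngII and 8.16 FPKM in WT+NS. How reads were assigned between the transcripts was not given in the sources used here. The labelled tissue was checked on 8 smooth muscle markers such as Acta2 and Myh11, whose summed level ran from 1268 to 6526 FPKM over the libraries. The pieces also held other tissue: 8 white adipocyte markers summed to between 6264 and 12332 FPKM, and 9 skeletal muscle markers to between 4.19 and 6752 FPKM. In such bulk tissue, fewer cells of a type and less RNA per cell cannot be told apart.

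Per length, Ehd1 was the most abundant of the 9 genes, with a mean of 56.4 FPKM over the 20 libraries, above 92.6% of the genes tested. Next were Ehd4 with a mean of 43.4 FPKM and Arf6 with 35.1 FPKM. Ehd3 averaged 12.9 FPKM, Micall1 12.1 FPKM, Snx27 8.21 FPKM and Rab11fip5 7.44 FPKM. Rab11fip2, at 4.36 FPKM, and Rab11fip1, at 1.69 FPKM, were the lowest, and the median of all genes tested was 7.09 FPKM. Neighbours in this order kept it in a varying number of libraries. Ehd1 exceeded Ehd4 in 19 of 20 libraries, Arf6 exceeded Ehd3 in 20 of 20, and Rab11fip2 exceeded Rab11fip1 in 19 of 20. Ehd4 exceeded Arf6 in 15, Micall1 exceeded Snx27 in 14 and Rab11fip5 exceeded Rab11fip2 in 14 of 20. Ehd3 exceeded Micall1 in 9 of 20 and Snx27 exceeded Rab11fip5 in 12 of 20, so these pairs had no fixed order. The EHD protein outside the set, Ehd2, which stabilises caveolae, averaged 89.3 FPKM, above all 9.

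**Figure D1:**
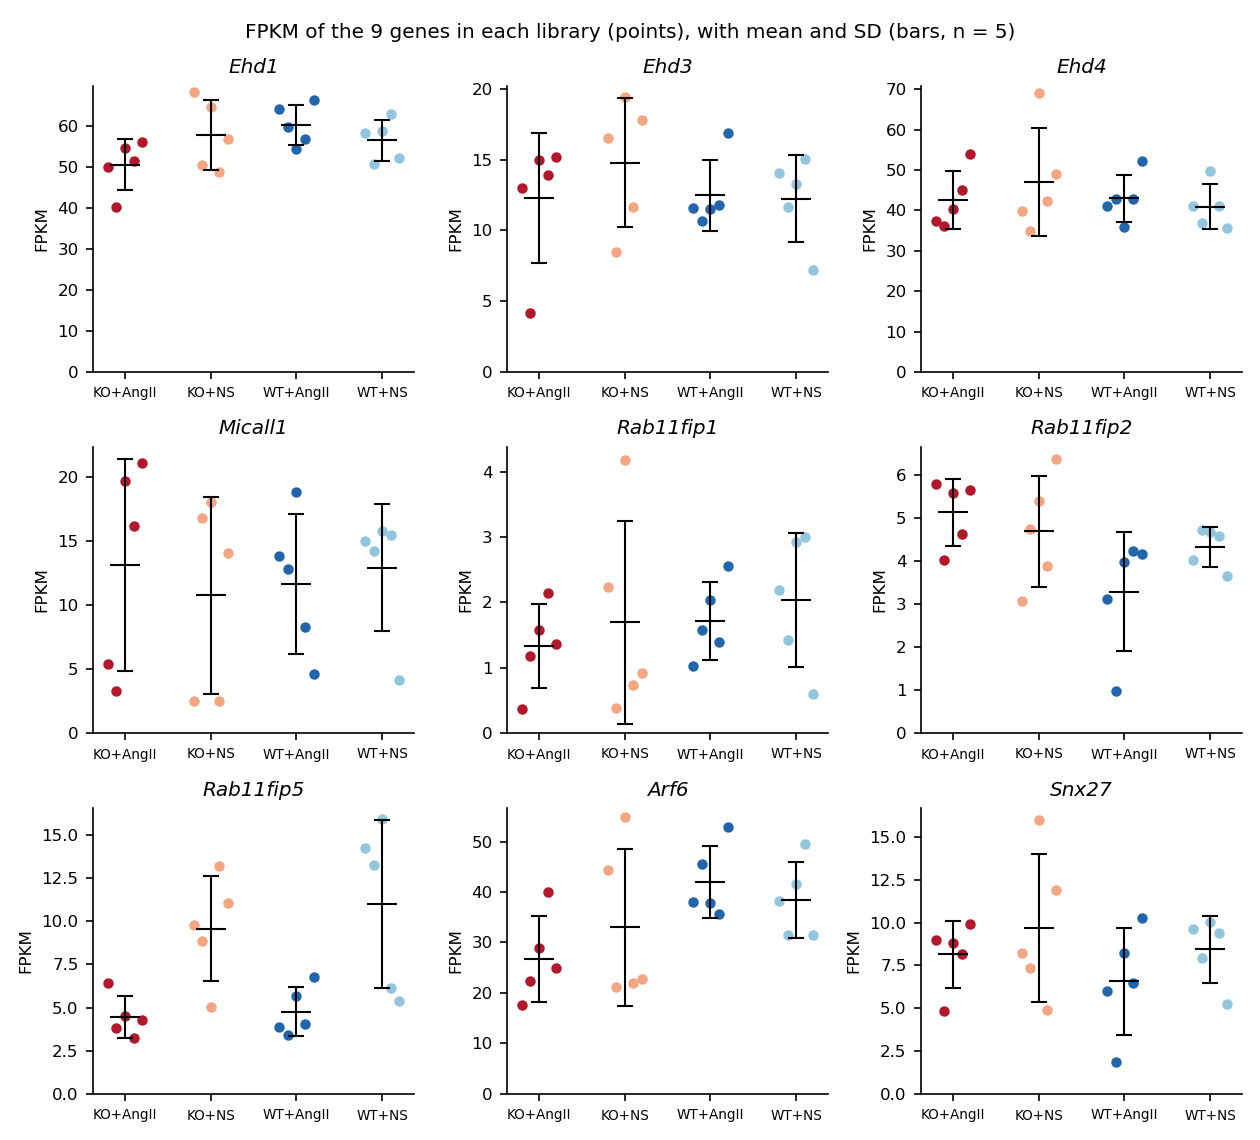
Each panel plots 1 gene's FPKM in each library (points, in replicate order within a group) for KO+AngII, KO+NS, WT+AngII and WT+NS, with the group mean and SD (black bars, n = 5). Rab11fip5 is low in both AngII groups, Arf6 averages lowest in KO+AngII, and Micall1 splits within every group.

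None of the 9 genes passed an adjusted p of 0.05 in any of 7 comparisons by limma on log2(FPKM + 1), with Benjamini-Hochberg adjustment over all 15010 genes. The same held by limma-voom on reads recovered from the values. The share of all genes that passed was 0% for KO+AngII against KO+NS, 0% for WT+AngII against WT+NS and 0% for AngII against saline averaged over both genotypes. It was 0.0133% for KO+NS against WT+NS, 1.83% for KO+AngII against WT+AngII, 4.15% for knockout against wild type averaged over both treatments, and 0% for the interaction. At an unadjusted p under 0.05, 1 of the 9 was lower with AngII than with saline in knockouts (3.96% of all genes, either direction), 1 in wild type (3.05%) and 1 on average (3.41%), in each case Rab11fip5. Of the 9, 3 differed at that level between KO+AngII and WT+AngII (17.3% of all genes), 1 between knockout and wild type on average (20.2%), 0 between KO+NS and WT+NS (7.37%) and 0 in the interaction (3.34%). For all 9 genes the libraries of the 2 groups overlapped in each of the 4 pairwise comparisons. Groups without overlap were seen in 0.426% of all genes for KO+AngII against KO+NS, 0.613% for WT+AngII against WT+NS, 1.28% for KO+NS against WT+NS and 5.21% for KO+AngII against WT+AngII.

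**Figure D2:**
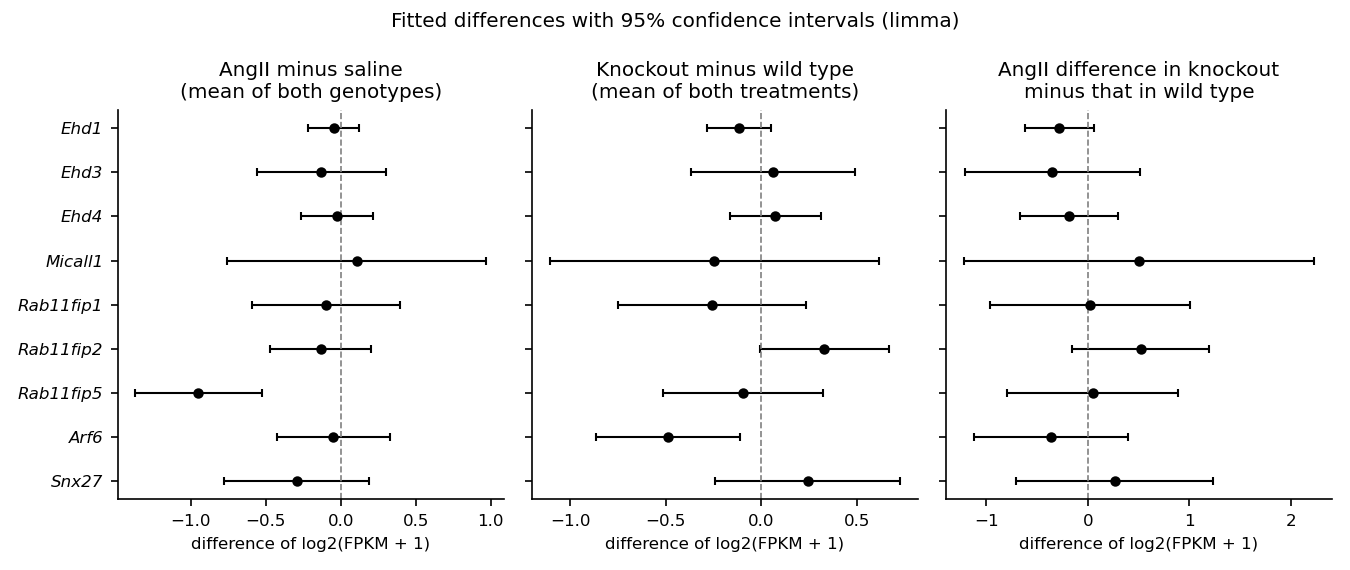
Fitted differences of log2(FPKM + 1) for the 9 genes with 95% confidence intervals from limma, for AngII minus saline, knockout minus wild type, and the difference between the 2 AngII effects. Rab11fip5 has the interval farthest below 0 with AngII (-1.37 to -0.53), and Arf6 has an interval below 0 with the knockout (-0.87 to -0.11).

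Among the Rab11 effectors, Rab11fip5 had the largest AngII difference of the 9 genes. It encodes Rip11, a class I FIP that binds Rab11 and membrane lipid. Its level was 6.42, 3.82, 4.54, 3.23 and 4.30 FPKM in KO+AngII, against 9.75, 8.82, 5.03, 13.2 and 11.1 FPKM in KO+NS. It was 3.90, 3.41, 5.67, 4.06 and 6.77 FPKM in WT+AngII, against 14.2, 13.3, 15.9, 6.14 and 5.36 FPKM in WT+NS. Most saline libraries lay above every AngII library, but 1 of KO+NS and 2 of WT+NS lay among the AngII values, so the groups overlapped in both genotypes. Averaged over genotypes the log2 difference was -0.95 ± 0.20 (SE), with an unadjusted p of 0.000158 and an adjusted p of 0.323 by limma. By that p it ranked 7 of 15010 genes. Within knockouts the log2 difference was -0.92 ± 0.28 (SE; adjusted p = 0.931, limma) and within wild type it was -0.97 ± 0.28 (SE; adjusted p = 1.00, limma). The AngII differences of the 2 genotypes differed by 0.05 ± 0.40 on the log2 scale (SE; unadjusted p = 0.900, adjusted p = 0.997, limma; 95% interval -0.79 to 0.89). With library weights in the same fit, Rab11fip5 passed, at a log2 difference of -1.20 and an adjusted p of 0.0165 (limma). In that fit 2 of all genes passed.

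Of the 2 Rab11fip5 transcripts, Rab11fip5-201, which held 85.7% of the gene's summed FPKM, had 5.31, 2.85, 3.34, 2.34 and 3.18 FPKM in KO+AngII, against 9.33, 6.94, 3.59, 12.4 and 9.12 FPKM in KO+NS. It had 3.16, 2.80, 4.41, 3.43 and 5.27 FPKM in WT+AngII, against 13.7, 12.6, 14.8, 4.48 and 4.61 FPKM in WT+NS. The same 3 saline libraries were low as for the gene sum. Its log2 difference with AngII over both genotypes was -1.05 ± 0.23 (SE; adjusted p = 0.459 over 25362 transcripts, limma). The longer Rab11fip5-202, with 14.3% of the sum, differed by -0.05 ± 0.15 (SE; adjusted p = 1.00, limma), but 4030 of the 4035 bases of Rab11fip5-201 lie within it, so the split between the 2 depends on how shared reads were assigned. Whether the 2 transcripts differed from each other in their AngII difference was not tested.

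Rab11fip2, the FIP that links Rab11 to myosin Vb, had its largest difference between genotypes under AngII. It had 5.78, 4.02, 5.58, 4.61 and 5.64 FPKM in KO+AngII, against 3.11, 0.964, 3.98, 4.22 and 4.17 FPKM in WT+AngII. One wild-type library, replicate 2, was far below the rest, and the lowest knockout value lay within the wild-type range. Under saline it had a mean of 4.69 ± 1.29 FPKM in KO+NS and 4.32 ± 0.467 FPKM in WT+NS (SD, n = 5 each). The log2 difference between KO+AngII and WT+AngII was 0.59 ± 0.23 (SE; unadjusted p = 0.0180, adjusted p = 0.188, limma), and without WT+AngII replicate 2 it was 0.33. It was 0.96 by limma-voom on recovered reads. Of its 3 coding transcripts, Rab11fip2-203 held 74.4% of the sum, Rab11fip2-201 15.1% and Rab11fip2-202 10.5%. Rab11fip2-201 was listed at 0 in KO+NS replicate 4, WT+AngII replicates 1 and 2 and WT+NS replicate 3. It was also low in KO+AngII replicates 2 (0.0475 FPKM) and 4 (0.0300 FPKM), WT+AngII replicate 4 (0.0638 FPKM) and WT+NS replicate 2 (0.00313 FPKM). It reached 1.48 FPKM in KO+AngII replicate 3 and 1.29 FPKM in WT+AngII replicate 5. Of its 4482 bases 3765 are shared with Rab11fip2-203, so the split between the 2 depends on how shared reads were assigned.

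Rab11fip1, which encodes the Rab coupling protein, was the scarcest member, with between 165 and 1612 reads per library. It averaged 1.33 ± 0.646 FPKM in KO+AngII, 1.69 ± 1.55 FPKM in KO+NS, 1.72 ± 0.593 FPKM in WT+AngII and 2.03 ± 1.02 FPKM in WT+NS (SD, n = 5 each). The 4 groups overlapped, with medians between 0.922 and 2.19 FPKM, and the knockout minus wild type difference averaged -0.26 ± 0.23 on the log2 scale (SE; adjusted p = 0.570, limma). Its shorter transcript Rab11fip1-201 held 56.4% of the sum and Rab11fip1-202 held 37.3%. All 3217 bases of Rab11fip1-201 lie within Rab11fip1-202.

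Arf6 was the member with the largest genotype difference that had an unadjusted p under 0.05. Its levels were 17.6, 22.3, 29.0, 40.1 and 24.9 FPKM in KO+AngII, against 38.0, 45.6, 37.9, 35.7 and 52.8 FPKM in WT+AngII. They were 44.5, 21.1, 54.8, 22.1 and 22.7 FPKM in KO+NS, against 38.3, 31.5, 41.5, 49.5 and 31.5 FPKM in WT+NS. Under AngII 4 of 5 knockout libraries were below every wild-type library and 1 lay among them, while under saline 3 knockout libraries were below and 2 were within or above the wild-type range. The log2 difference was -0.67 ± 0.25 for KO+AngII minus WT+AngII (SE; unadjusted p = 0.0174, adjusted p = 0.185, limma). It was -0.31 ± 0.25 for KO+NS minus WT+NS (SE; unadjusted p = 0.242, adjusted p = 0.852, limma), the smallest p of the 9 genes there. Averaged over treatments it was -0.49 ± 0.18 (SE; unadjusted p = 0.0144, adjusted p = 0.136, limma), which ranked 1589 of 15010 genes by p. Without KO+NS replicate 3, whose 54.8 FPKM was the highest Arf6 level of the 20 libraries, the averaged difference passed, at -0.59 with an adjusted p of 0.0366 (limma). Leaving out the highest knockout value makes this difference more negative by itself, so that pass adds no separate evidence. That omission also gave the most genes past the threshold of any single library left out, 1007 beside 623 in the main fit.

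Markers of immune cells moved with Arf6. In KO+AngII against WT+AngII all 8 T and NK cell markers, all 8 B and plasma cell markers and all 8 macrophage markers had lower fitted levels, none of them past the adjusted threshold. Of all genes tested, 62.0% were lower there. In KO+NS against WT+NS all 8 T and NK cell, all 8 B and plasma cell and 7 of 8 macrophage markers were also lower, beside 57.1% of all genes. Averaged over treatments the same counts were lower in knockouts, beside 61.3% of all genes. There 1 B and plasma cell marker passed the adjusted threshold by limma, as did 4.15% of all genes. The summed T and NK cell level ran from 5.71 to 217.6 FPKM in KO+AngII, 7.26 to 427.0 FPKM in KO+NS, 114 to 221 FPKM in WT+AngII and 37.0 to 221 FPKM in WT+NS. The summed B and plasma cell level ran from 8.95 to 343 FPKM in KO+AngII, 6.25 to 695 FPKM in KO+NS, 268 to 625 FPKM in WT+AngII and 104 to 636 FPKM in WT+NS. The wild-type libraries all held such RNA, while knockout libraries ranged from little to as much or more. The summed macrophage level ran from 259 to 1499 FPKM in KO+AngII, 326 to 2262 FPKM in KO+NS, 807 to 2464 FPKM in WT+AngII and 504 to 1099 FPKM in WT+NS. No marker of the 3 lists was at 0 in all libraries of a group. The 2 KO+NS libraries with the highest Arf6, replicates 1 and 3, had the highest T and NK cell sums of all 20, at 288 and 427 FPKM.

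As a description over the 20 libraries, each taken as its deviation from its group mean, Arf6 had a Pearson r of 0.94 with the mean macrophage marker level (Spearman rho 0.91), 0.92 with T and NK cell markers (rho 0.91) and 0.92 with B and plasma cell markers (rho 0.91). Leaving out the 2 libraries farthest from the median of the marker level gave r of 0.90, 0.89 and 0.92. All points share the library total and the mixture of tissues in a piece. With white adipocyte and skeletal muscle marker levels as 2 covariates, the averaged Arf6 difference was -0.56 on the log2 scale (unadjusted p = 0.00371, adjusted p = 0.0638, limma). The difference between KO+AngII and WT+AngII was -0.80 in that fit (unadjusted p = 0.00381, adjusted p = 0.0861, limma), and that between KO+NS and WT+NS was -0.33. B and plasma cell markers and nerve markers were added as covariates after seeing the data. With these 4 covariates the averaged Arf6 difference was -0.08 on the log2 scale (unadjusted p = 0.443, adjusted p = 0.690, limma). The difference between KO+AngII and WT+AngII was then -0.25, and that between KO+NS and WT+NS was 0.10. The added levels themselves differed with genotype, by a median log2 difference of -1.54 for B and plasma cell and 0.19 for nerve markers on average. Since the B and plasma cell level also followed Arf6 within groups, that fit cannot tell genotype and this marker level apart. The same limit applies to the other fits with these 4 covariates.

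**Figure D3:**
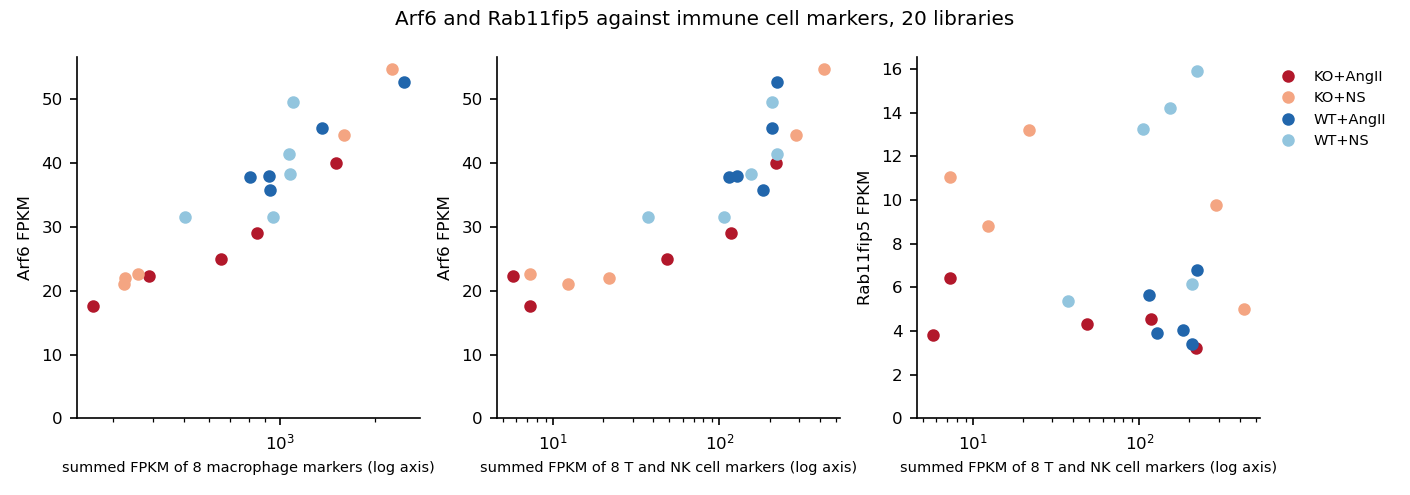
Arf6 FPKM against the summed FPKM of 8 macrophage and 8 T and NK cell markers, and Rab11fip5 FPKM against the T and NK cell markers, on log horizontal axes, with 1 point per library coloured by group. Arf6 climbs with both marker sums through all 4 groups, while Rab11fip5 shows no such order.

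Among the EHD proteins, Ehd1, which drives exit from the recycling compartment, varied least. Its SD within groups was 0.16 on the log2 scale, lower than in all but 6.64% of genes tested, where the median was 0.35. It had 50.0, 40.4, 54.7, 51.6 and 56.3 FPKM in KO+AngII, against 64.2, 59.9, 54.5, 56.9 and 66.4 FPKM in WT+AngII. It had 68.5, 50.5, 64.7, 48.8 and 57.0 FPKM in KO+NS, against 58.3, 50.8, 58.9, 63.0 and 52.3 FPKM in WT+NS. Under AngII 3 of 5 knockout libraries lay below every wild-type library, and under saline the knockout range held the whole wild-type range. The log2 difference between KO+AngII and WT+AngII was -0.26 ± 0.11 (SE; unadjusted p = 0.0380, adjusted p = 0.257, limma). It was -0.05 after quantile normalization, under which the median difference of all genes tested was 0.03 in place of -0.10. Ehd1 also had the smallest interaction p of the 9 genes, with a difference between the AngII differences of -0.28 ± 0.16 on the log2 scale (SE; unadjusted p = 0.102, adjusted p = 0.995, limma). Ehd1 deviations from the group means had r of 0.73 with B and plasma cell markers, 0.71 with T and NK cell markers and 0.70 with macrophage markers. Its strongest marker correlation was with 6 brown adipocyte markers, at r of -0.80 (Spearman rho -0.80), or -0.77 without the 2 libraries farthest from the median, and it was -0.64 with mesothelium markers, or -0.43 without 2 libraries. Ehd4 (r -0.82), Ehd3 (r -0.77) and Arf6 (r -0.72) also had less RNA where brown adipocyte markers were high. That marker sum ran from 685 to 2309 FPKM in KO+AngII, 179 to 1540 FPKM in KO+NS, 524 to 1648 FPKM in WT+AngII and 540 to 1636 FPKM in WT+NS. The Ehd1 difference between KO+AngII and WT+AngII was -0.29 with white adipocyte and skeletal muscle marker levels as covariates, and -0.16 (adjusted p = 0.459, limma) with the 4 covariates used for Arf6, neither past the threshold. Brown adipocyte and mesothelium levels were covariates in no fit, and their part in these differences was not tested.

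Ehd4, an EHD protein of early endosomes, averaged 42.6 ± 7.18 FPKM in KO+AngII, 47.0 ± 13.3 FPKM in KO+NS, 43.0 ± 5.90 FPKM in WT+AngII and 40.9 ± 5.56 FPKM in WT+NS (SD, n = 5 each). The AngII difference over both genotypes was -0.02 on the log2 scale (95% interval -0.26 to 0.21, limma), and the knockout difference over both treatments was 0.07 (95% interval -0.16 to 0.31, limma). KO+NS replicate 3, at 69.0 FPKM, was the highest of the 20. Ehd3, which acts between early endosomes and the recycling compartment, averaged 12.3 ± 4.60 FPKM in KO+AngII, 14.8 ± 4.57 FPKM in KO+NS, 12.5 ± 2.49 FPKM in WT+AngII and 12.3 ± 3.08 FPKM in WT+NS (SD, n = 5 each). Its range over the libraries was from 4.19 FPKM in KO+AngII replicate 2 to 19.4 FPKM in KO+NS replicate 3. Ehd1 and Ehd4 were each carried by 1 coding transcript, at 98.0% and 99.0% of their sums.

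Micall1 had the widest spread within groups, with an SD of 0.98 on the log2 scale, above 92.9% of genes tested. It had 5.36, 3.31, 19.7, 16.2 and 21.2 FPKM in KO+AngII, against 13.9, 12.8, 18.9, 8.26 and 4.59 FPKM in WT+AngII. It had 2.46, 16.8, 18.1, 2.51 and 14.1 FPKM in KO+NS, against 15.0, 14.2, 15.8, 15.5 and 4.18 FPKM in WT+NS. The 20 values left a gap, with 7 libraries between 2.46 and 8.26 FPKM and 13 between 12.8 and 21.2 FPKM. The 7 low libraries were 2 of KO+AngII, 2 of KO+NS, 2 of WT+AngII and 1 of WT+NS, so every group held both kinds. With this spread the 95% interval of the AngII difference over both genotypes ran from -0.76 to 0.97 on the log2 scale, and that of the knockout difference from -1.11 to 0.62 (limma).

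The split in Micall1 lay in Micall1-203, which held 82.7% of the summed FPKM. In the 7 low libraries Micall1-203 ran from 0 to 6.13 FPKM, and in the other 13 it ran from 11.7 to 17.6 FPKM. It was listed at 0 in KO+NS replicates 1 and 4. The other annotated Micall1 transcripts together ran from 1.34 to 2.70 FPKM in the low libraries and from 1.12 to 3.56 FPKM in the rest, so their sum did not share the split. Micall1-203 is annotated as subject to nonsense-mediated decay and all of its 6490 bases lie within the 6712 bases of the coding Micall1-201. The 2 differ mainly in exon 6, and that part is shown because it tells them apart (mm10 chr15:79122758-79122986, plus strand). Lower case gives 30 exon bases that both transcripts hold, and capitals give the 199 bases that Micall1-201 holds and Micall1-203 lacks.
Micall1 exon part: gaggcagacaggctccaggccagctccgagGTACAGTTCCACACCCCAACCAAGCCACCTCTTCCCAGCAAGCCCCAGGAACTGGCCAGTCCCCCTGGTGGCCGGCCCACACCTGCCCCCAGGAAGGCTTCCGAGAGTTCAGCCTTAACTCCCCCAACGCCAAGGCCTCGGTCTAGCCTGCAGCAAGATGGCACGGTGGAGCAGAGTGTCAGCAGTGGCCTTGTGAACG
Since 199 leaves a remainder of 1 when divided by 3, leaving the capital bases out shifts the reading frame. They begin with GT, the usual first bases of an intron. Micall1-201 itself held 2.27% of the sum. It ran from 0.190 to 1.48 FPKM in the 7 low libraries, highest in KO+AngII replicate 1, and from 0.126 to 0.356 FPKM in the other 13. The split between Micall1-201 and Micall1-203 depends on how shared reads were assigned. The unannotated transcript models of each library, 10.6% to 12.9% of its FPKM, name no gene, and whether reads of Micall1 were assigned to one in the low libraries was not tested.

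Snx27 had a mean of 8.15 ± 1.94 FPKM in KO+AngII, 9.68 ± 4.34 FPKM in KO+NS, 6.57 ± 3.13 FPKM in WT+AngII and 8.45 ± 1.96 FPKM in WT+NS (SD, n = 5 each). It was lowest in WT+AngII replicate 2, at 1.84 FPKM, the library in which Rab11fip2 was also lowest, and highest in KO+NS replicate 3, at 16.0 FPKM. The knockout difference over both treatments was 0.24 ± 0.23 on the log2 scale (SE; adjusted p = 0.587, limma). Snx27-202 held 78.0% of the sum and Snx27-201 held 19.5%. All 3531 bases of Snx27-202 lie within Snx27-201, so reads from the shared part do not tell them apart. Of the transcripts of the 9 genes, 12 passed the filter and 0 passed the adjusted threshold in any of the 7 comparisons by limma. At an unadjusted p under 0.05 there were at most 2 of the 12, Arf6-201 and Rab11fip2-203, in KO+AngII against WT+AngII, where 14.7% of all transcripts had such a p and 0.564% passed.

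**Figure D4:**
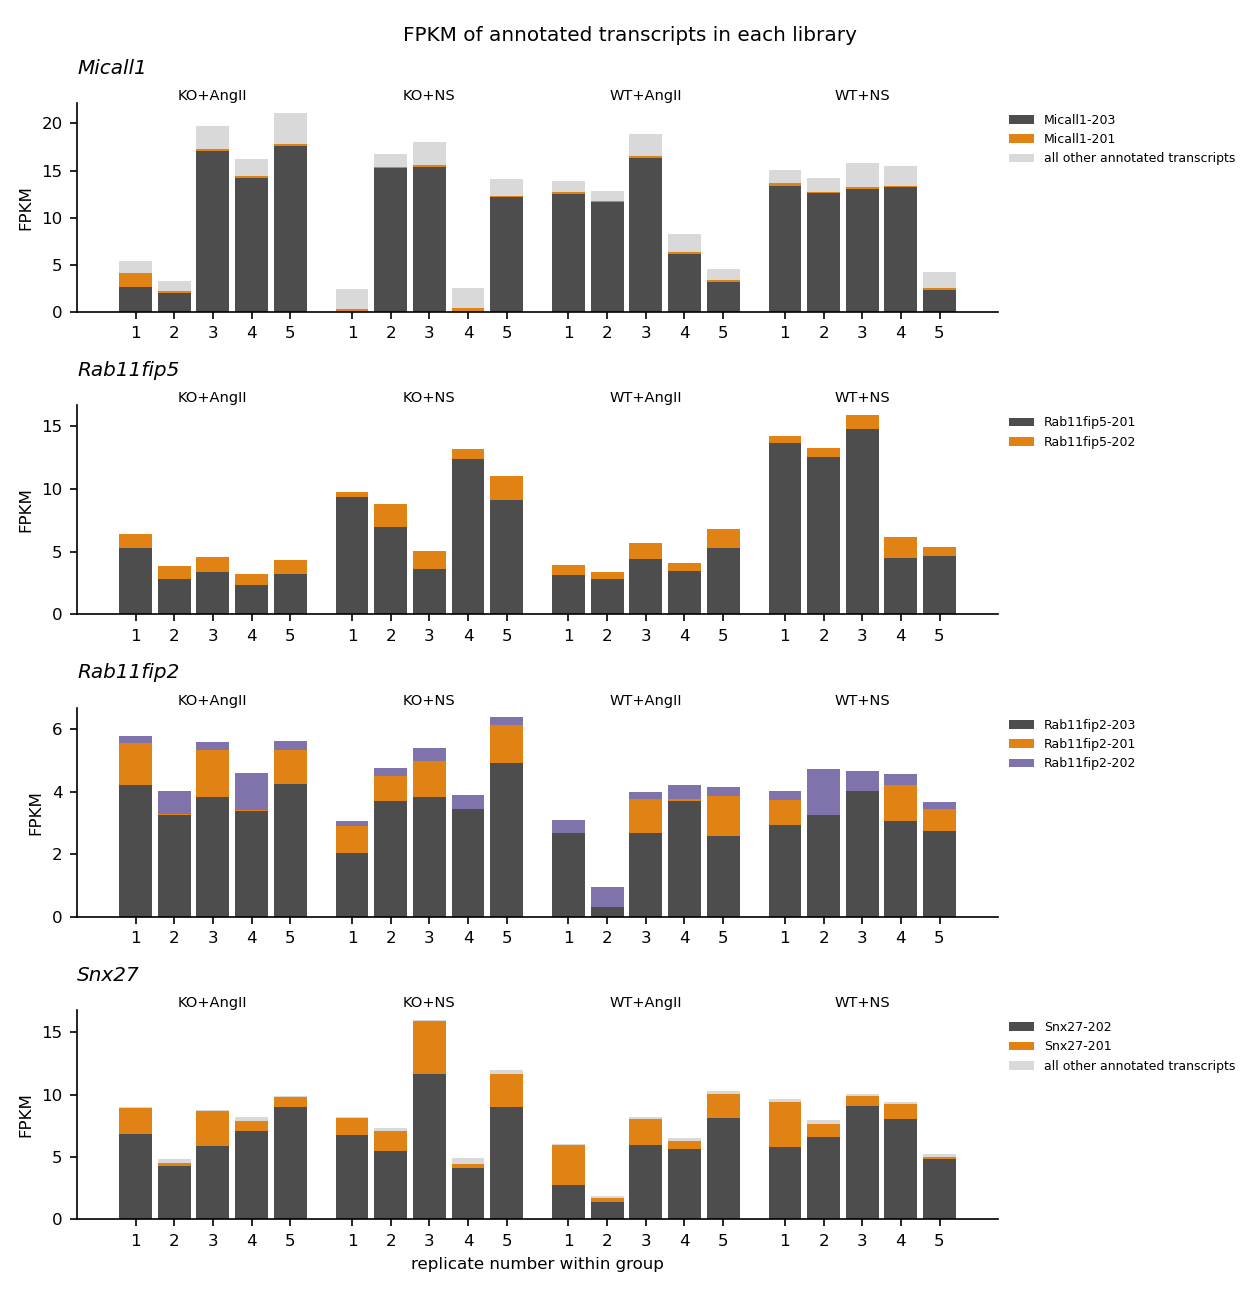
Stacked bars give the FPKM of annotated transcripts of Micall1, Rab11fip5, Rab11fip2 and Snx27 in each of the 20 libraries, by group and replicate number. Micall1-203 is missing or short in 7 libraries spread over all 4 groups, and Rab11fip5-201 makes up the height of the tall saline bars.

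Within groups, some members varied together and Rab11fip5 did not vary with the rest. As deviations from the group means over the 20 libraries, Arf6 and Rab11fip1 had a Pearson r of 0.90 (Spearman rho 0.90), and r was 0.90 without the 2 libraries farthest from the Rab11fip1 median. Ehd1 and Ehd3 had r of 0.81 (rho 0.81), and 0.72 without 2 libraries. Rab11fip2 and Snx27 had r of 0.83 (rho 0.80), and 0.70 without 2 libraries, of which WT+AngII replicate 2 was 1. Rab11fip5 had r between -0.38, with Arf6, and 0.25, with Rab11fip2. All these points share the library total and the tissue in the piece, and no test was made.

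**Figure D5:**
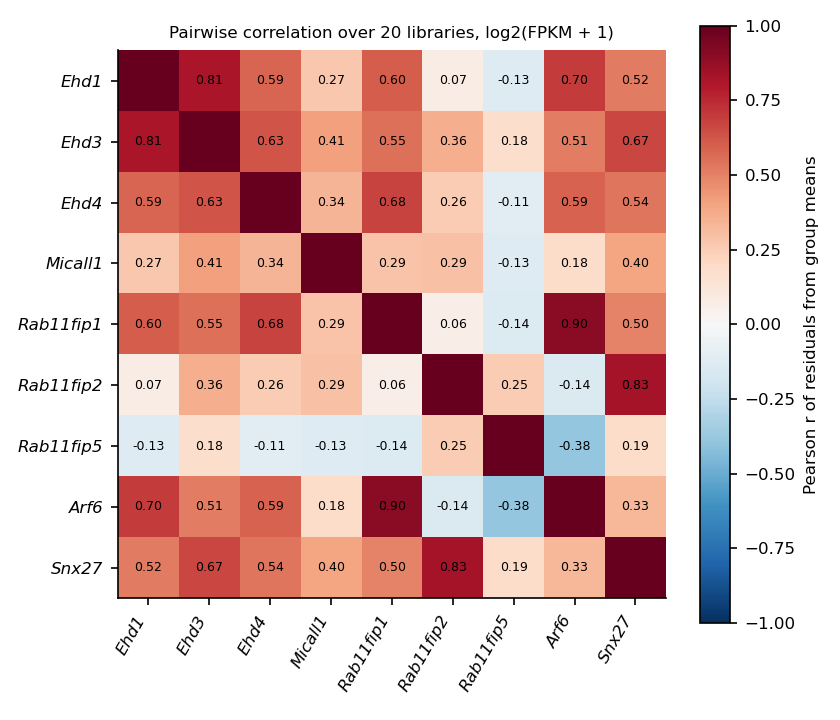
Pearson r between each pair of the 9 genes over 20 libraries, as deviations of log2(FPKM + 1) from the group means. Arf6 with Rab11fip1 (0.90), Rab11fip2 with Snx27 (0.83) and Ehd1 with Ehd3 (0.81) are the highest, and the Rab11fip5 row is pale.

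The genes most like each member on the same measure were sought among the 8681 tested genes averaging 5 FPKM or more. Each r below was picked as 1 of the 2 highest of that search, which by itself favours high values, and no test was made. For Arf6 they were Vasp, an actin regulator, with r of 0.99, and Cyba, a subunit of NADPH oxidase, with r of 0.98. For Rab11fip1 they were Dnm2, which encodes dynamin 2, and Lrrk1, with r of 0.97 each, and Rab11fip1 had r of 0.87 with macrophage markers. For Rab11fip5 they were the noncoding RNA Rian (r 0.90) and Ampd3, an AMP deaminase (r 0.74), and its r with immune markers ran from -0.24 to -0.18. Its largest r with any marker list were -0.39 with smooth muscle, 0.34 with Schwann cell and nerve and 0.31 with brown adipocyte markers. With AngII on average, 6 of 8 smooth muscle markers were higher. The smooth muscle level was a covariate in no fit, and its part in the Rab11fip5 difference was not tested. The EHD genes had others: Slc7a5 (r 0.92) and Arrdc1 (r 0.91) for Ehd1, Trpv2 and Cyfip2 (r 0.96 each) for Ehd3, and Dnajc10 (r 0.94) and Tm9sf2 (r 0.90) for Ehd4. Micall1 was most like Fam124a (r 0.79) and Jag1 (r 0.78). Rab11fip2 was most like Hspa2 and Srp54b (r 0.86 each), which were 0.62 and 0.55 without 2 libraries. Snx27 was most like Parp4 (r 0.90) and Gpatch4 (r 0.86), which were 0.82 and 0.73 without 2 libraries.

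Of 74 other genes of these pathways, in 6 lists, 70 were tested. With AngII against saline over both genotypes, 0 of 70 passed by limma (0% of all genes), and 1 had an unadjusted p under 0.05, or 1.43% beside 3.41% of all genes. Of the 70, 48 had lower fitted levels, or 68.6% beside 57.2% of all genes, and the median log2 difference was -0.04 beside -0.02. With knockout against wild type over both treatments, 1 of 70 rose and 0 fell, or 1.43% beside 4.15% of all genes. There 10 had an unadjusted p under 0.05 (14.3% beside 20.2%), 23 had lower fitted levels (32.9% beside 61.3%), and the median was 0.07 beside -0.07. In KO+AngII against WT+AngII, 1 of 70 rose and 0 fell, or 1.43% beside 1.83% of all genes. There 8 had an unadjusted p under 0.05 (11.4% beside 17.3%), 30 had lower fitted levels (42.9% beside 62.0%), and the median was 0.03 beside -0.10. The other 4 comparisons had 0 of 70 past the threshold by limma. At an unadjusted p under 0.05 there were 5 of 70 in KO+AngII against KO+NS (7.14% beside 3.96% of all genes), 4 in WT+AngII against WT+NS (5.71% beside 3.05%), 3 in KO+NS against WT+NS (4.29% beside 7.37%) and 4 in the interaction (5.71% beside 3.34%).

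The gene that rose was Spag9, which encodes JIP4, a motor adaptor that binds active Arf6. It had 45.6, 36.5, 42.3, 34.8 and 44.7 FPKM in KO+AngII, against 22.6, 23.4, 32.5, 26.3 and 29.0 FPKM in WT+AngII. It had 28.8, 34.4, 36.2, 38.5 and 48.2 FPKM in KO+NS, against 29.6, 28.6, 33.0, 28.0 and 26.3 FPKM in WT+NS. Under AngII all 5 knockout libraries were above all 5 wild-type libraries, and such a gap in that direction was seen in 1.37% of all genes, while under saline 4 of 5 were. The log2 difference was 0.60 ± 0.13 in KO+AngII against WT+AngII (SE; adjusted p = 0.0307, limma) and 0.46 ± 0.09 over both treatments (SE; adjusted p = 0.0113, limma). With 4 marker covariates the 2 differences were 0.45 and 0.29, neither past the threshold, and the first was also lost when the 2 groups were fitted alone (adjusted p = 0.0697, limma). It was lost, too, without any 1 of KO+AngII replicates 1, 2, 3 and 5 or WT+AngII replicates 1, 2 and 4, with log2 differences then between 0.54 and 0.63. The other 7 genes on the list of Arf6 effectors, phosphatidylinositol phosphate kinases and phospholipases among them, did not pass in any comparison by limma.

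The remaining lists gave no gene past the threshold by limma, and their smallest p-values are given as values. Among Arf6 GTPase-activating proteins, Asap2 had 7.19 ± 0.649 FPKM in KO+AngII and 4.94 ± 0.811 FPKM in WT+AngII (SD, n = 5 each), a log2 difference of 0.47 ± 0.12 (SE; adjusted p = 0.0528, limma). Acap2 differed by 0.33 ± 0.13 between knockout and wild type on average (SE; adjusted p = 0.162, limma). In the list of Snx27, retromer and WASH, Snx17, a sorting nexin of the retriever pathway, had 37.5 ± 2.64 FPKM in KO+AngII and 49.7 ± 6.57 FPKM in WT+AngII (SD, n = 5 each), a log2 difference of -0.39 ± 0.10 (SE; adjusted p = 0.0524, limma). The retromer subunit Vps29 had an interaction of -0.99 ± 0.29 on the log2 scale (SE; adjusted p = 0.995, limma), which was 0.30 with coding transcripts alone. Both Asap2 and Snx17 lay just outside the threshold, and of 33 alternative settings 7 brought Asap2 and 5 brought Snx17 past it.

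Rab11b, a partner of the 3 FIP proteins, had 20.9 ± 6.01 FPKM in KO+AngII and 31.8 ± 8.16 FPKM in WT+AngII (SD, n = 5 each). The log2 difference was -0.61 ± 0.22 (SE; adjusted p = 0.164, limma) and -0.06 by limma-voom on recovered reads. Among EHD partners, Rab35, a GTPase that recruits MICAL-like 1, had 16.5 ± 5.07 FPKM in KO+AngII, 10.7 ± 3.99 FPKM in KO+NS, 8.91 ± 5.44 FPKM in WT+AngII and 14.9 ± 3.81 FPKM in WT+NS (SD, n = 5 each). Its interaction was 1.51 ± 0.54 on the log2 scale (SE; adjusted p = 0.995, limma). Rbsn, which encodes rabenosyn-5, differed by 0.20 ± 0.08 between knockout and wild type on average (SE; adjusted p = 0.201, limma). Of the Arf6 exchange factors, Cyth4 differed by -1.03 ± 0.39 in WT+AngII against WT+NS (SE; adjusted p = 1.00, limma), and Cyth1 by -0.81 ± 0.35 in KO+NS against WT+NS (SE; adjusted p = 0.628, limma).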

How the data were processed

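Total RNA of abdominal aorta was depleted of ribosomal RNA and sequenced, per the labels' protocols. The authors deposited 1 table per library of 126719 transcript models, read here as FPKM from the values: multiplied by transcript length, 99.3% of low values were within 0.1 read of whole numbers. The submitters' processing notes name the build mm10 and the tool limma, with no role or version. The aligner and the counter were not given in the sources used here. FPKM of 109913 Ensembl transcripts matched to GENCODE M21 were summed per gene (42890 genes), and 16637 unannotated models were left out.

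The 15010 genes that reached 1 FPKM in 5 or more libraries were fitted as log2(FPKM + 1), pseudocount 1, with limma 3.58.1 (R 4.3.3; 4 group means over 20 libraries, trend and robust variance), with 2-sided tests, Benjamini-Hochberg adjustment within each of 7 comparisons and a threshold of 0.05. Fold changes on this scale understate changes of low genes. Figures and summaries used Python 3.11.15, numpy 2.4.6, pandas 2.3.3, scipy 1.17.1 and matplotlib 3.10.9.

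The 9 genes and all lists were chosen with earlier results of these data known. Named differences are those of members with an unadjusted p under 0.05 in a comparison, otherwise the member with its smallest p. From the pathway lists, genes past the threshold are named, otherwise up to 2 per list with the smallest unadjusted p under 0.05; likeness names the 2 highest r per member, passing over predicted loci. Values of other members are given as descriptions. Transcripts with at least 10% of a member's sum are named, with Micall1-201 added after its values were seen. Alternatives were the pseudocount, the filter, scaling, the variance model, libraries in the fit, coding transcripts alone, a replicate block, tissue covariates, limma-voom on recovered reads and leaving out each library.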

Additional observations from a re-analysis of the deposited data

Results flagged for a closer look

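Of 36 groups of 5 values (9 genes in 4 groups), 3 held a library that stood apart by Dixon's 95% criterion, which chance meets in about 1 in 20 groups. Ehd3 had 4.19 FPKM in KO+AngII replicate 2, where the other 4 libraries ran from 13.0 to 15.2 FPKM. Ehd3 had 16.9 FPKM in WT+AngII replicate 5, where the others ran from 10.6 to 11.8 FPKM. Micall1 had 4.18 FPKM in WT+NS replicate 5, where the others ran from 14.2 to 15.8 FPKM.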

How the results depend on the processing

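With library weights 1 of the 9 genes passed in each of 4 comparisons, and 1 member transcript passed. Arf6 passed in KO+AngII against WT+AngII, in KO+NS against WT+NS and for knockout against wild type on average, where 1913, 1195 and 4039 of all genes passed. Rab11fip5 passed with AngII on average, where 2 of all genes passed. Leaving out 1 library gave 0 to 1 members past the threshold for knockout against wild type on average, and 0 in the other comparisons. Over 652 alternatives of single genes, 615 kept direction and side of the threshold, 11 lost a call, 24 gained one and 2 turned round. These were Arf6 in KO+NS against WT+NS with 4 tissue covariates (0.0961) and the Vps29 interaction with coding transcripts alone (0.3024); the cause was not tested. Rab11fip5 with AngII on average stayed between -1.20 and -0.87.

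Counts of all genes moved more. For KO+AngII against WT+AngII the 275 genes became 21 with 4 covariates, 165 by limma-voom, 1 in the compared groups alone, 1913 with library weights, 147 with coding transcripts alone, and 9 (without KO+AngII replicate 3) to 484 (without WT+AngII replicate 3) leaving out a library. For knockout against wild type on average the 623 became 210 with 4 covariates, 4039 with weights, 1172 without a filter, 367 with coding transcripts, and 281 to 1007 leaving out a library. For KO+NS against WT+NS the 2 became 9 with 4 covariates, 1195 with weights, 20 without a filter, 1 by limma-voom, with 2 covariates, in the compared groups alone, at 5 FPKM or after quantile normalization, and 1 to 4 leaving out a library. The 0 of KO+AngII against KO+NS became 2 with weights and 0 to 4 leaving out a library. The 0 of WT+AngII against WT+NS became 2 with weights, 11 without a filter and 0 to 1 leaving out a library. The 0 of AngII on average became 2 with weights, 1 without a filter and 0 to 5 leaving out a library, and the interaction gave 1 without a filter.

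Correlations of same-numbered libraries ran from -0.52 to 0.39. Of 5 libraries, 3 correlated best with their own number for KO+AngII against KO+NS and 0 for WT+AngII against WT+NS. It was 1 for KO+NS against WT+NS and 1 for KO+AngII against WT+AngII. Whether replicate numbers pair the libraries was not tested. A fit with the replicate number as a block gave 70 genes for KO+AngII against WT+AngII, 1 for KO+NS against WT+NS, and 0 of the 9 genes in every comparison, and Spag9 in KO+AngII against WT+AngII had an adjusted p of 0.0506 (limma). The 4 covariates and limma-voom were chosen after seeing the data. Fitting the compared groups alone was not run for averaged comparisons and the interaction. Rab11fip1, at 165 to 1612 reads, was the least precisely measured by depth.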
